A study of Arabidopsis thaliana with 7 samples.

Results

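A set of 47 genes was read at high level in untreated Arabidopsis leaves, at low level in leaves sprayed with the surfactant Silwet alone, and at an intermediate to high level in leaves sprayed with salicylic acid (SA) in Silwet. The members were chosen from the measured values. A probe set, the group of short probes that reads 1 transcript, was taken when it named 1 gene, when untreated leaves were at least 2 log2 units (4-fold) above both Silwet arrays, when SA at 6 h was at least 1 log2 unit (2-fold) above Silwet at 6 h, and when SA at 3 h and at 6 h each lay less than 1 above untreated. Symbols that start with WRKY, ZAT, ERF, NAC or MYB were left out. This gave 47 probe sets for 47 genes of the 13513 probe sets naming 1 gene, with 1 probe set per gene. Of these genes 7 carry a symbol and 40 go by their locus. STZ stayed in under its symbol, although RefSeq lists ZAT10 among its synonyms. WRKY53 was the 1 probe set that met the thresholds and was left out by its name. Altogether 145 probe sets met the margin of untreated over both Silwet arrays and are called untreated-high. Besides the 47 and WRKY53, 71 of them had SA at 6 h less than 1 above Silwet at 6 h. The remaining 26 had SA at 3 h or 6 h at least 1 above untreated.

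All RNA came from mature leaves of Col-0 plants aged 3.5 weeks, grown under a 12 h photoperiod, and was read on 7 Affymetrix ATH1 arrays. The 4 SA arrays were leaves taken 3, 6, 12 and 24 h after a spray of 0.5 mM SA in 0.02% Silwet, the 2 Silwet arrays were leaves taken 6 and 12 h after 0.02% Silwet alone, and 1 array was untreated leaves collected before the spray. Each array held about 0.2 g of leaves pooled from 2 to 4 plants, and each condition is represented by 1 array, so no difference has a replicate error or a p-value. The values are the authors' log2 RMA expression values, in which 1 unit is a 2-fold difference. The Silwet arrays analysed here cover 6 h and 12 h only. The comparison of SA with untreated leaves therefore holds both the spray and SA, which cannot be told apart at 3 h and 24 h.

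SA is a phenolic hormone of plant defence that acts through NPR receptors and TGA transcription factors. Wetting, touch, wounding and microbial patterns each set off a rapid, short-lived wave of transcripts in leaves, which codes for calcium-binding proteins, zinc-finger repressors, receptor kinases and secreted wall proteins. Several of the 47 genes belong to protein families of that kind. The protein families given here for genes named by locus are general knowledge of the Arabidopsis proteome, since the annotation tables used hold no product names.

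Across the 47 genes the level in SA leaves had a median of 10.14 at 3 h, 9.10 at 6 h, 8.43 at 12 h and 9.40 at 24 h. The Silwet medians were 7.00 at 6 h and 7.47 at 12 h, and the untreated median was 10.54. The median was thus near the untreated one 3 h after SA, lowest among the SA arrays at 12 h, and higher again at 24 h. Not every gene followed that course. The gap between untreated and Silwet, and that between SA and Silwet at 6 h, follow from how the genes were picked and were not tested. The low side of SA at 3 h, and SA at 12 h and 24 h, were not used to pick them.

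**Figure D1:**
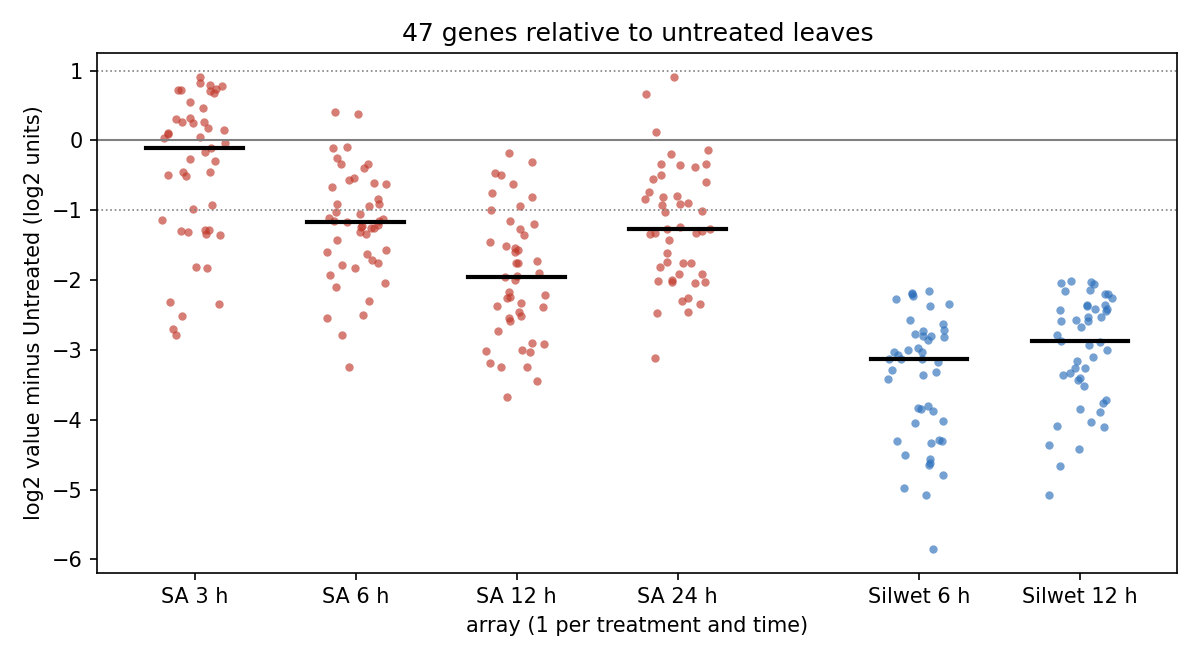
Difference from the untreated array (log2 units) for the 47 genes in the 4 SA arrays and the 2 Silwet arrays; each point is 1 gene, the black bar is the median and the dotted lines mark 2-fold. The SA medians are -0.12, -1.17, -1.96 and -1.27 at 3, 6, 12 and 24 h, and the Silwet medians are -3.13 and -2.87 at 6 and 12 h.

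The set was kept up only in part. At 3 h 33 of the 47 genes were within 2-fold of untreated leaves, as were 11641 of all 13513 probe sets. None could be 2-fold higher, because the rule left such genes out. The other 14 were at least 2-fold lower, where 6.65% of all 13513 probe sets were that much lower. At 6 h 30 genes were at least 2-fold below untreated (9.35% of all probe sets), at 12 h 38 genes (8.22%) and at 24 h 28 genes (3.68%). Untreated leaves were high by choice, so these shares say nothing particular about the genes. Expressed on the log2 scale as a share of the gap between the mean of both Silwet arrays and the untreated array, the median gene stood at 96.9% with SA at 3 h, 59.9% at 6 h, 39.4% at 12 h and 63.8% at 24 h. At 12 h the lowest was AT1G19380 (-10.1%) and the highest AT5G19875 (93.1%), and 15 of 47 genes kept at least 50% of the gap. At 24 h 32 of 47 did. The lowest at 3 h was AT5G54300 (8.05%). The 71 untreated-high probe sets with SA at 6 h less than 1 above Silwet had medians of 16.9, -2.07, -7.00 and 50.8% at 3, 6, 12 and 24 h. Of these 71, 0 kept at least 50% at 12 h and 37 did at 24 h. Both groups were chosen on SA at 6 h, and the shares at 3 h and 24 h rest on Silwet at other times.

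Nearness to the thresholds was as follows. Just inside the margin over Silwet lay TET8 (2.01), AT5G54300 (2.03) and ZCF37 (2.04), and just outside AT1G23710 (1.97), AT3G06070 (1.94) and AT1G17860 (1.93). For SA over Silwet at 6 h, AT3G22060 and AT4G24380 (both 1.01) and AT4G28290 (1.04) were just inside, and AT5G66650 (0.99), AT1G58420 (0.95) and AT1G70250 (0.94) just outside. For SA at 3 h over untreated, TET8 (0.90), STZ (0.82) and AT1G61360 (0.80) were inside, and AT5G39670 (1.03) and AT5G52750 (1.39) outside, with AT3G04640 between these. At 6 h the 3 genes closest to the limit of 1 above untreated were TET8 (0.40), AT5G19240 (0.38) and AT5G42830 (-0.10), and no gene was left out by that limit alone.

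The genes are taken by role, in groups formed with the results known. Counts at least 2-fold above Silwet at 12 h in each group stand beside 24 of 47 for the whole set and 5.98% of all probe sets, and the groups were not tested against each other. The transcription and ubiquitin regulators held 6 of the genes. STZ encodes a zinc-finger transcriptional repressor known from salt, drought and reactive oxygen stress. Its log2 values with SA were 12.74, 11.38, 9.56 and 9.90 at 3, 6, 12 and 24 h, against 7.37 and 7.84 in Silwet at 6 and 12 h and 11.92 untreated. It was highest of all arrays at 3 h, and every SA array lay above both Silwet arrays. HYH, the bZIP partner of HY5 in light signalling, had the largest margin of untreated leaves over Silwet, 4.79. HYH read 9.47, 8.71, 7.01 and 9.33 with SA at 3, 6, 12 and 24 h, against 5.14 and 4.85 in Silwet and 9.93 untreated. Its SA value at 12 h was 2.17 above Silwet, or 4.49-fold, and its value at 24 h was within 2-fold of untreated.

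PUB19, a U-box ubiquitin ligase gene known from drought and abscisic acid signalling, differed in shape, with 7.17, 8.96, 7.42 and 8.26 with SA at 3, 6, 12 and 24 h, 7.14 and 6.62 in Silwet and 9.88 untreated. It was the 1 gene of the 47 whose highest SA array was 6 h, and at 3 h it lay -2.70 from untreated, near the Silwet level. AT3G56880, which encodes a VQ-motif protein, a class that binds WRKY factors, read 12.43, 11.22, 9.49 and 10.04 with SA, 9.58 and 9.52 with Silwet and 12.39 untreated. At 3 h it was 0.04 above untreated leaves, and at 12 h it lay -0.03 from Silwet. AT3G46600, of the GRAS family of transcriptional regulators, and AT4G02200, of the Di19 drought-induced zinc-finger family, were 0.26 and 0.64 above Silwet at 12 h. In all, 2 of the 6 regulators, STZ and HYH, were at least 2-fold above Silwet at 12 h.

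Calcium and lipid signalling was represented by 3 genes, with untreated values between 11.36 and 12.49. AT4G27280 encodes a small EF-hand calcium-binding protein. With SA it read 13.22, 11.77, 10.92 and 10.69 at 3, 6, 12 and 24 h, against 8.13 and 8.33 in Silwet and 12.43 untreated. All its SA values were above both Silwet values, by 2.59 (6.02-fold) at 12 h. AT4G34150, of a family with a calcium-dependent lipid-binding C2 domain, had 13.20, 11.87, 11.14 and 11.69 with SA, 9.08 and 9.49 with Silwet and 12.49 untreated. AT2G26190, of a family of calmodulin-binding IQ-motif proteins, was 0.43 above Silwet at 12 h, the smallest of the 3. None of the 3 was below untreated at 3 h; they were 0.26 to 0.78 above it.

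Cell surface, secreted and receptor proteins made up 10 genes, of which 8 were at least 2-fold above Silwet at 12 h, and none was as much as 2-fold below untreated at 3 h. The exceptions at 12 h were AT1G61360 (0.86) and ATPMEPCRB (0.98). AT5G19240, which encodes a glycoprotein of the plasma membrane with a lipid anchor, stood 2.89 (7.43-fold) above Silwet at 12 h, the largest value of the 47. It read 12.75, 12.39, 11.39 and 12.14 with SA at 3, 6, 12 and 24 h, 9.25 and 8.50 in Silwet and 12.02 untreated, so SA leaves were never more than 2-fold from untreated. AT5G48540, for a secreted cysteine-rich protein with the DUF26 domain, had 11.19, 10.06, 9.36 and 10.46 with SA, 8.18 and 6.94 with Silwet and 11.30 untreated. The second DUF26 gene of the set, AT3G22060, read 9.86, 9.57, 8.62 and 9.49 with SA, 8.56 and 7.47 with Silwet and 10.83 untreated.

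AT3G10930 encodes a small secreted peptide of the IDA-like class. Its values were 10.24, 8.24, 7.09 and 7.81 with SA at 3, 6, 12 and 24 h, against 4.43 and 5.61 with Silwet and 10.28 untreated. At 3 h it was level with untreated, and Silwet at 6 h differed from untreated by -5.85. ATPMEPCRB, also called PME41, encodes a pectin methylesterase, an enzyme that remodels the wall. It read 8.56, 6.97, 5.63 and 6.61 with SA, 4.09 and 4.65 with Silwet and 9.07 untreated, a level at 24 h that was -2.46 from untreated. AT1G24140, for a matrix metalloproteinase, was flat at 8.12, 8.12 and 8.15 with SA at 6, 12 and 24 h after 10.61 at 3 h, with 5.55 and 6.16 in Silwet and 9.88 untreated.

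TET8, the tetraspanin of plant extracellular vesicles, was above untreated at 3 and 6 h and read 13.18, 12.67, 11.97 and 11.37 with SA at 3, 6, 12 and 24 h, 9.30 and 10.26 with Silwet and 12.27 untreated. AT5G15870, of glycosyl hydrolase family 81, and AT1G61360, an S-domain lectin receptor kinase gene, were among the genes lowest at 24 h against 12 h, by -0.92 and -0.61. AT5G15870 had 10.86, 9.63, 9.54 and 8.62 with SA, 6.50 and 8.18 with Silwet and 10.54 untreated. AT1G61360 had 10.14, 9.01, 8.15 and 7.54 with SA, 6.98 and 7.29 with Silwet and 9.35 untreated, so its 24 h value was close to the Silwet values. AT1G72920, which codes for a protein with the TIR domain of immune receptors, was 1.31 above Silwet at 12 h.

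**Figure D2:**
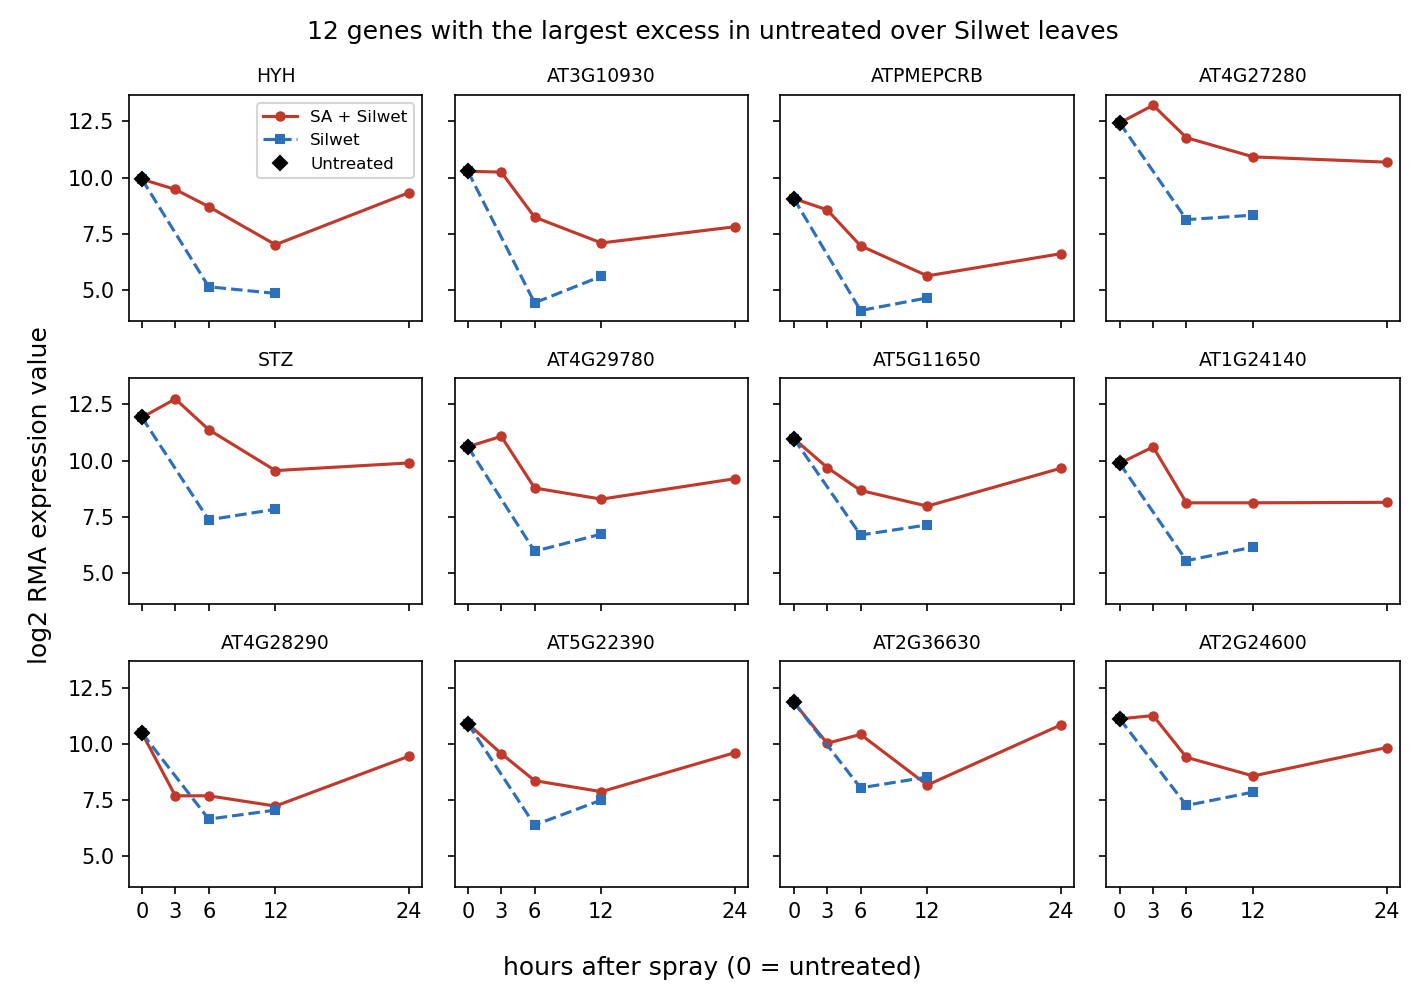
Log2 RMA expression value against hours after the spray for the 12 genes with the largest margin of untreated over Silwet leaves; red circles are SA with Silwet, blue squares Silwet alone and the black diamond the untreated array at 0 h, 1 array per point, with lines joining the points. Silwet is low at 6 and 12 h in every panel, and SA lies above it at 12 h in all but AT2G36630.

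Transport and metabolism accounted for 7 genes, of which 3 were at least 2-fold above Silwet at 12 h and 5 were within 2-fold of untreated at 24 h. Within 2-fold of untreated at 24 h were 19 of the 47 genes and 12542 of all 13513 probe sets. CYTC-2, one of the cytochrome c genes of the mitochondrial electron chain, read 9.98, 9.63, 9.39 and 9.70 with SA at 3, 6, 12 and 24 h, against 7.69 and 7.36 in Silwet and 9.89 untreated. Its 4 SA values and the untreated value spanned less than 1 unit. AT5G42830, of the BAHD acyltransferase family, behaved alike, at 9.61, 9.19, 8.82 and 9.15 with SA, 6.16 and 6.84 with Silwet and 9.29 untreated. AT2G36630, of a family of sulphite exporter-like membrane proteins, went the other way at 12 h, where SA lay -0.35 from Silwet. Its values were 10.02, 10.41, 8.16 and 10.83 with SA, 8.04 and 8.52 with Silwet and 11.84 untreated.

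AT5G11650, for an alpha/beta hydrolase, was 0.84 above Silwet at 12 h and 1.69 above its own 12 h value at 24 h. Its levels were 9.70, 8.67, 7.98 and 9.66 with SA, 6.69 and 7.14 with Silwet and 10.98 untreated. The other alpha/beta hydrolase gene, AT3G19970, was 1.44 above Silwet at 12 h and 0.66 above untreated at 24 h. AT1G33110, of the MATE efflux family, and AT4G30470, similar to cinnamoyl-CoA reductases, were 0.78 and 0.93 above Silwet at 12 h. At 3 h AT4G30470 was -2.51 from untreated while AT1G33110 was 0.11 from it.

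The remaining 21 genes are mostly of unknown function, and 9 of them were at least 2-fold above Silwet at 12 h. AT5G19875 stood 2.25 above Silwet at 12 h and was the gene furthest above untreated at 24 h (0.91). Its values were higher at each later SA array, 7.11, 7.44, 8.21 and 9.30, against 5.58 and 5.95 in Silwet and 8.39 untreated. AT4G29780 was highest with SA at 3 h and lowest among the SA arrays at 12 h, with 11.08, 8.78, 8.29 and 9.20 with SA, 5.97 and 6.73 with Silwet and 10.62 untreated. AT2G24600, of the ankyrin-repeat class, read 11.25, 9.39, 8.57 and 9.83 with SA, 7.25 and 7.85 with Silwet and 11.10 untreated.

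The genes of this group lowest in SA minus Silwet at 12 h were AT1G19380, AT5G54300, AT2G24550 and AT1G65490. AT1G19380 read 11.18, 9.75, 8.43 and 9.43 with SA at 3, 6, 12 and 24 h, 8.36 and 9.09 with Silwet and 11.68 untreated. AT5G54300 read 6.26, 7.27, 6.03 and 7.35 with SA, 5.54 and 6.58 with Silwet and 8.61 untreated, and lay between both Silwet values at 3 h and 12 h. AT2G24550 had 10.87, 10.06, 9.14 and 9.41 with SA, 8.18 and 9.18 with Silwet and 11.32 untreated. In these 3 SA was below Silwet at 12 h, as it was in AT2G36630 and AT3G56880. AT1G65490 was 0.15 above it, with 11.27, 9.33, 9.56 and 12.24 with SA, 7.96 and 9.42 with Silwet and 12.58 untreated.

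The others are given by range. AT1G49000, AT1G64490, AT1G68440, AT3G15760, AT3G17800 and AT4G24380 lay between 1.05 and 1.60 above Silwet at 12 h, and AT1G25400 was 1.25 above it. ZCF37 read 10.64, 8.60, 8.79 and 9.57 with SA, 7.36 and 8.34 with Silwet and 10.39 untreated, so SA at 3 h was closest to untreated. AT4G24380 read 9.64, 8.66, 8.27 and 8.88 with SA, 7.65 and 7.22 with Silwet and 9.81 untreated. ZCF37, AT2G25735, AT2G38640 (of the LURP-one-related class), AT2G46940, AT4G28290, AT5G22390 and AT5G41100 lay between 0.18 and 0.75 above Silwet at 12 h. The 2 genes closest together on a chromosome were AT2G24550 and AT2G24600, 7 genes apart, and no other pair lay within 10 genes.

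Whether SA leaves still differed from Silwet leaves at 12 h was asked next. At that time 24 of the 47 genes were at least 2-fold higher with SA and none at least 2-fold lower, where 5.98% of all probe sets were that much higher and 6.01% that much lower. The median difference was 1.05, against -0.03 over all probe sets. In 42 genes SA was above Silwet at 12 h (41.4% of all probe sets). The Silwet array at 12 h had been used to pick the genes as low, so this count is a description. The 71 probe sets counted above met the margin of untreated over Silwet and had SA at 6 h less than 1 above Silwet at 6 h. Among them SA at 12 h exceeded Silwet by 2-fold or more in 2 and lay below it by as much in 6, and the median was -0.07. The 26 untreated-high probe sets left out because SA at 3 h or 6 h was at least 2-fold above untreated had a larger difference, with 25 of 26 at least 2-fold above Silwet at 12 h and a median of 2.37. A level above Silwet at 12 h thus does not mark the 47 among untreated-high genes. SA at both 12 h and 24 h lay above both Silwet arrays in 39 of the 47 genes, against 18.5% of all probe sets. The rule held both Silwet arrays low, and neither was taken at 24 h, so this count too is a description.

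The step between the late SA arrays used no array of the rule, but it is not independent of it. Untreated and 24 h leaves were taken at the same clock hour, and the 12 h leaves at the opposite one. The rule's margin of untreated over Silwet at 12 h therefore set the same clock hours against each other. How much of the step came in by that choice was not tested. SA at 24 h was at least 2-fold above SA at 12 h in 18 of the 47 genes and at least 2-fold below in 1, AT1G25400, where 4.54% of all probe sets were that much higher and 4.3% that much lower. The median was 0.78, against 0.02 over all probe sets, and 37 genes were higher at 24 h (52.7% of all probe sets). The highest were AT1G65490 (2.68), AT2G36630 (2.67), HYH (2.31), AT4G28290 (2.22), AT3G17800 (2.16) and AT5G22390 (1.74). AT4G28290 read 7.68, 7.68, 7.23 and 9.44 with SA, 6.65 and 7.05 with Silwet and 10.48 untreated. AT3G17800 read 11.58, 11.37, 10.42 and 12.58 with SA, 10.31 and 9.18 with Silwet and 12.94 untreated, which put its 24 h value near untreated. AT5G22390 read 9.56, 8.36, 7.87 and 9.60 with SA, 6.38 and 7.49 with Silwet and 10.89 untreated. In each of the 3 the 24 h value was the highest SA value.

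The lowest at 24 h against 12 h were AT1G25400 (-1.06), AT5G15870, AT5G41100 (-0.85), AT3G15760 (-0.78), AT2G25735 (-0.73) and AT1G61360. AT1G25400 had 10.43, 9.18, 8.80 and 7.73 with SA, 6.39 and 7.55 with Silwet and 9.74 untreated. AT2G25735 had 11.37, 9.58, 8.25 and 7.52 with SA, 6.34 and 7.54 with Silwet and 10.64 untreated, and ended furthest from untreated of the 47 at 24 h (-3.12). The 24 h values of AT1G25400 and AT2G25735 were close to their Silwet values at 12 h. AT3G15760 read 10.55, 9.89, 9.02 and 8.24 with SA, 7.00 and 7.49 with Silwet and 10.29 untreated. AT5G41100 read 9.20, 7.87, 8.04 and 7.19 with SA, 6.78 and 7.29 with Silwet and 9.49 untreated, with its 24 h value between both Silwet values.

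**Figure D3:**
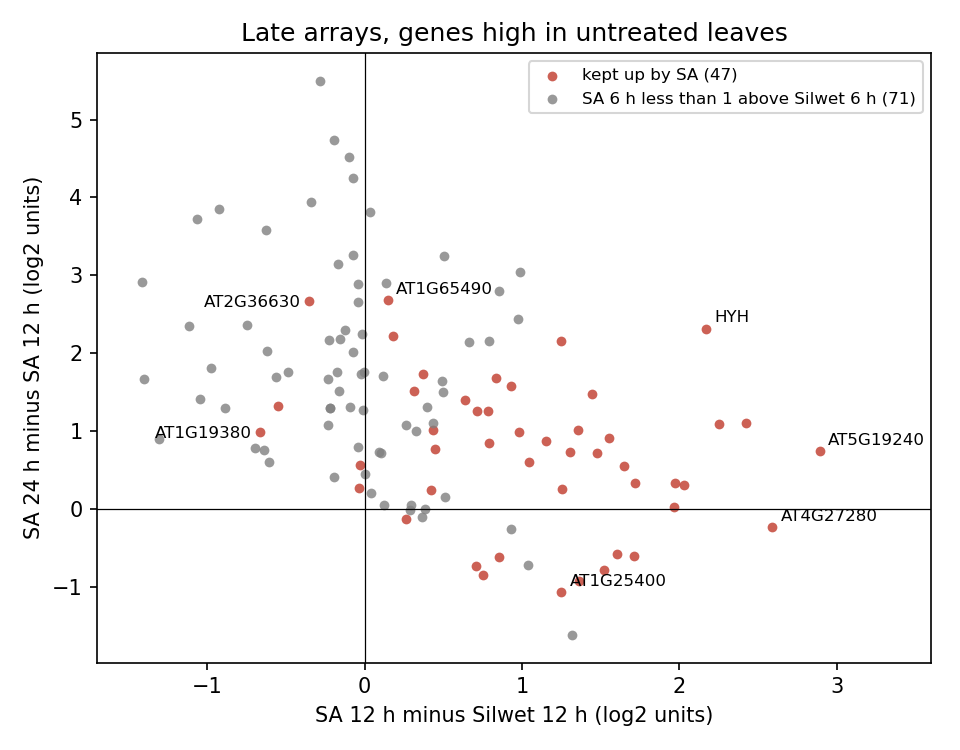
SA minus Silwet at 12 h (x axis, log2 units) against SA at 24 h minus SA at 12 h (y axis, log2 units); red points are the 47 genes, grey points the 71 probe sets high in untreated leaves whose SA value at 6 h was less than 1 above Silwet. SA at 12 h enters both axes with opposite sign. At 24 h over 12 h, 18 of the red and 52 of the grey points are at least 1 unit higher.

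The other untreated-high groups lay on either side of the 47 genes in this step. Among the 71 probe sets low with SA at 6 h as well, 52 stood 2-fold or more higher at 24 h than at 12 h and 1 stood as much lower, with a median of 1.69. Among the 26 left out because SA at 3 h or 6 h was at least 2-fold above untreated, 0 stood 2-fold higher at 24 h, 5 stood as much lower, 17 were lower at all, and the median was -0.40. At 24 h the untreated leaves and SA leaves shared a clock hour, while both 12 h arrays were taken at the opposite one. The clock gene GI read 9.19 with SA at 24 h and 5.36 with SA at 12 h, against 4.83 in Silwet at 12 h and 8.71 untreated. Its part in the result was not tested.

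The courses of the 47 genes fell into a few shapes. SA at 3 h was the highest SA array in 34 genes (27.2% of all probe sets) and SA at 24 h in 12 (31.3%). SA at 6 h was highest in 1 (18.6%) and SA at 12 h in 0 (22.9%). The lowest SA array was 12 h in 29 genes (24.5%), 24 h in 10 (21.9%), 3 h in 4 (26.3%) and 6 h in 4 (27.3%). The count for 24 h was thus near the share of all probe sets. In 25 genes the values were lower at 6 h than at 3 h, lower again at 12 h and higher at 24 h (16.2%), and in 9 they were lower at each later array (4.32%). The rule used SA at 3 h and 6 h, so these orders are a description. The genes were also split by SA at 3 h. The 14 at least 2-fold below untreated had a median of 0.61 for SA minus Silwet at 12 h and 1.54 for SA at 24 h minus 12 h. All 14 were higher at 24 h than at 12 h (52.7% of all probe sets). The other 33 had medians of 1.31 and 0.56, and 10 of them were lower at 24 h than at 12 h (43.8% of all probe sets). The 3 h array took no part in either difference, but the rule capped it, so the split is a description. Among the 71 untreated-high probe sets low with SA at 6 h as well, 59 were at least 2-fold below untreated at 3 h (6.65% of all probe sets). At 24 h 52 of the 71 were at least 2-fold above 12 h (4.54%). Neither trait is thus particular to the 47.

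The median gene of the 47 was shorter than the median of all genes. The span in RefSeq, introns included, had a median of 1632 bp with quartiles of 1213 and 2498 bp, against a median of 2105 bp with quartiles of 1400 and 3044 bp over the 13286 genes with a span. The 70 genes of the 71 probe sets low with SA at 6 h as well had a median of 2110 bp. Length was not used in picking the genes, and the difference was described and not tested. By chromosome, 13, 8, 8, 9 and 9 of the 47 lay on chromosomes 1, 2, 3, 4 and 5. These are 27.7, 17.0, 17.0, 19.1 and 19.1% of the 47, beside 25.7, 16.3, 20.5, 14.6 and 22.4% of all genes.

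Measures of the arrays themselves also moved. The 3′ over 5′ excess of the GAPDH control probe sets, a sign of RNA quality, was 0.57, 0.62, 1.49 and 1.19 log2 units with SA at 3, 6, 12 and 24 h, 1.78 and 1.41 with Silwet at 6 and 12 h, and 0.85 untreated. The 3 arrays with the lowest medians of the 47 genes, SA at 12 h and both Silwet arrays, had the 3 highest values, and SA at 24 h, with a median above that of SA at 6 h, had a higher value than SA at 6 h. For actin the excess was 1.72, 2.48, 2.44 and 2.30 with SA, 2.39 and 1.84 with Silwet and 1.83 untreated. The part of RNA quality in the result was not tested. Of 51 planned cell type markers 3 had a named probe set. The mesophyll gene RCA lay between 13.70 and 14.22 in all arrays. The guard-cell gene FAMA (FMA) read 7.08, 6.67, 7.52 and 7.37 with SA, 7.81 and 8.30 with Silwet and 7.52 untreated. The trichome patterning gene TRY read 7.09, 5.85, 5.82 and 7.58 with SA, 5.95 and 5.82 with Silwet and 8.89 untreated, so it was itself over 4-fold higher in untreated than in Silwet leaves, and its part in the result was not tested. In whole leaves, fewer cells of a type and less RNA per cell cannot be told apart.

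Few genes of the pathway lists drawn up for this comparison had a named probe set, 69 of 402 entries. In the list of calcium, touch and wounding genes 9 of 47 were measured, 3 of them were untreated-high, and 1, STZ, was among the 47. The other 2, CML37 and CML38, calmodulin-like genes, were left out because SA at 3 h was 4.13 and 2.01 above untreated. At 12 h 5 of these 9 passed 2-fold above Silwet with SA and 0 passed it below, where 5.98% of all probe sets were that much higher and 6.01% that much lower, and the median was 1.54 against -0.03 over all. In the list of cell wall enzymes 9 of 29 were measured and 3 were untreated-high. ATPMEPCRB was among the 47. XTH18 and XTH19, which encode xyloglucan endotransglucosylases, were 2.40 and 4.46 above the higher Silwet array in untreated leaves, but SA at 6 h was only 0.15 and 0.13 above Silwet. In this list 0 of 9 passed 2-fold above Silwet at 12 h with SA and 3 passed it below. Of the 5 measured genes of pattern-triggered immunity 1 was untreated-high, PUB22, whose SA value at 6 h missed the limit at 0.89 above Silwet. In that list 3 of 5 passed 2-fold above Silwet at 12 h with SA, as did 3 of 6 in the list of SA synthesis and signalling, and 0 passed it below in either. The lists of pattern-triggered immunity, SA, jasmonate, ethylene, abscisic acid and cold, the clock, light, heat shock, auxin, detoxification and commonly used control genes held none of the 47. They had between 1 (clock) and 9 (auxin) measured probe sets each. With 47 members among 13513 probe sets, holding none in lists this short says nothing particular about those pathways. HYH was not on the light list.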

How the data were processed

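Leaf RNA of 7 samples was read on ATH1 arrays. The deposited values are on the log2 scale and come from RMA with affy, per the submitters' processing notes, and the versions are not given in the sources used here. RMA corrects background, quantile-normalises the arrays and summarises each probe set. It makes array distributions alike (medians within 0.0686 log2 units here), which would hide a change common to most transcripts, and it compresses differences of dim probe sets. The number of arrays sets the precision, since arrays have no read depth.

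Of 22810 probe sets, 64 are controls. Genes were named from the platform annotation, where 13513 probe sets named 1 gene, 503 several and 8794 none, and 13436 symbols were updated through RefSeq (TAIR10.1). Differences were taken between single arrays with pandas 2.3.3 in Python 3.11.15, without a test, and counted at 1 log2 unit beside all 13513 probe sets. The rule was run on simulated data with planted members far from the thresholds and none past the limit over untreated. That run checks the code and not the choice of genes. No promoter or protein sequence was used here, so the planned motif counts were not made, and no coordinate is given.

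The members, lists, role groups and comparisons were chosen with earlier results of these data known. The genes named with all values were the 12 with the largest margin of untreated over Silwet, the 6 highest and the 6 lowest in SA minus Silwet at 12 h and in SA at 24 h minus 12 h, members on a gene list, and those nearest a threshold; the tables give no product to name shared families by. AT4G34150 and PUB19 were given in full after their values were seen. List entries whose symbol matched another gene, CCR2, FDH and RPS2, were taken off by hand. The closing section gives the alternatives tried.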

Additional observations from a re-analysis of the deposited data

Results flagged for a closer look

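In 5 of the 47 genes SA lay below Silwet at 12 h: AT1G19380 (-0.66), AT5G54300 (-0.55), AT2G36630 (-0.35), AT2G24550 (-0.0357) and AT3G56880 (-0.0325). The last 2 were close to level with Silwet. Over all 13513 probe sets 55.3% lay below Silwet at 12 h. That SA lay above Silwet at 6 h in these genes follows from the rule. With 1 array per condition the difference between the times was not tested. A further 56 probe sets that name no gene or several met the same thresholds, out of 9233 such probe sets, or 0.607%, beside 48 of 13513, or 0.355%, of those naming 1 gene. They have no single gene name here and were not described further.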

How the results depend on the processing

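No paired analysis was possible because each condition had 1 array. In all, 38 alternative values were within 1.5 times of the count reported and 12 beyond. The number of genes, 47, was 71 and 27 with a margin of untreated over Silwet of 1.5 and 2.5 log2 units, 72 with no limit on SA over untreated, and 103 over all probe sets, named or not. Requiring the margin over Silwet at 6 h alone, an alternative chosen after seeing the data, gave 85. It was 45 with the arrays centred on their medians, all 45 among the 47, and 43 after repeated quantile normalisation, 42 of them among the 47. At a threshold of 1.5 log2 units, SA was above Silwet at 12 h in 14 genes in place of 24, below untreated in 18 in place of 28 at 24 h and in 7 in place of 14 at 3 h. SA at 24 h over 12 h was higher in 30 and lower in 8 at 0.5, and higher in 9 and lower in 0 at 1.5, in place of 18 and 1. Rescaling the arrays or keeping only the 43 genes whose lowest array was above the lower quartile of all values moved no count of the 47 genes by more than 1.5 times. Differences of dim genes are compressed, so Silwet levels near that quartile, 5.19, may understate the gap.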

Other observations

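A neighbouring group of 26 probe sets was also high in untreated leaves over Silwet and over Silwet with SA at 6 h, but exceeded untreated by at least 2-fold with SA at 3 h or 6 h. It held CML37, CML38 and AT3G01830, all of the calmodulin-like family, and AT5G05300, of the same peptide class as AT3G10930. AT5G05300 read 11.27, 8.70, 7.54 and 7.44 with SA at 3, 6, 12 and 24 h, against 5.95 and 6.03 with Silwet and 8.69 untreated. AT3G10930 differed from it at 3 h, where it lay -0.04 from untreated and AT5G05300 2.58 above. The TIR-domain gene AT1G72900 read 12.54, 11.56, 10.39 and 9.53 with SA, 7.74 and 7.76 with Silwet and 10.33 untreated, beside AT1G72920 of the 47, which was -0.26 from untreated at 3 h. These genes were named after their values were seen.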
